A study of Mus musculus with 12 samples.

Results

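Conventional CD4 T cells were selected from scRNA-Seq of CD45+ cells of MC38 tumors, a mouse colon carcinoma line grown under the skin of C57BL/6 mice. The labels list 4 groups of 3 mice, given vehicle or EZH2i PF-06821497 at 100 mg/kg daily for 7 days from day 10 or for 16 days from day 1, with tumors taken on day 17; no age is given. A barcode was counted as a conventional CD4 T cell if it had at least 1 unique molecular identifier (UMI) of Cd3d, Cd3e or Cd3g and at least 1 of Cd4, and none of Foxp3, Il2ra, Cd8a, Cd8b1, Adgre1 or Csf1r. Of 128912 cells that passed the limits on genes and mitochondrial UMIs, 525 were members, a share of 0.407% (exact 95% interval 0.373 to 0.444%, counting error only). Each barcode ends in the number of its library (1 to 12), and no label ties these numbers to mice. No cell could therefore be given to vehicle or to EZH2i, no comparison between these groups was made, and the pooled matrix was treated as 1 sample, without p-values.

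Helper CD4 T cells recognize peptides held by MHC class II molecules, and they steer other immune cells by surface ligands such as CD40 ligand and by secreted cytokines. Transcription factors sort them into helper lineages named Th1, Th2, Th17 and follicular helper (Tfh). Regulatory CD4 T cells, defined by FOXP3 and rich in the interleukin 2 receptor alpha chain encoded by Il2ra, restrain these responses and are common in tumors. Recently activated helper cells can carry the same receptor chain, so a limit on Il2ra also leaves out part of the helper cells.

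The genes of the rule are no finding, but they show how thin the evidence for a single cell was. Of the members, 344 (65.5%) had exactly 1 Cd4 UMI, 123 had 2 and 34 had 3, and 54 had exactly 1 Cd3 UMI. Cells with 0 Cd4 UMIs lay just outside: 3152 cells with Cd3 had neither Cd4 nor Cd8 UMIs. Of 1430 cells with both Cd3 and Cd4, the limit on Il2ra alone removed 249, 102 of them by 1 UMI, and the limit on Foxp3 alone removed 2. A Foxp3 UMI was found in 25 of the 1430 cells. A count of 0 does not show that a member lacked FOXP3, and how many members were regulatory T cells was not tested.

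Marker genes outside the rule were in part those of T helper cells. A T cell receptor constant gene (Trac, Trbc1 or Trbc2) was detected in 497 members (94.7%). Cd40lg, which encodes CD40 ligand, was detected in 63 members (12%, 9.35 to 15.1%), against 0.597% of CD8 T cells and 0% of 298 B cells. Cd3e, part of the rule, was detected in 345 members (65.7%). Free RNA in the droplets can give a stray UMI: Cd4 was found in 3.20% of 3998 Cd3 cells with Cd8 (2.68 to 3.80%) and in 0.336% of B cells. In mm10, Cd4 lies at chr6:124864692-124888221 on the minus strand, Cd3e at chr9:44998740-45009627 on the minus strand and Cd40lg at chrX:57212143-57224042 on the plus strand.

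Other cells left RNA in these barcodes. The 7 macrophage markers summed to 2249 CPM (UMIs of a gene scaled to the same total in each class) in the members, 2809 in CD8 T cells and 38588 in all cells kept; over the 8 libraries with at least 20 members the sum ranged from 1338 to 11663, and none of the 7 was at 0. Only 107 members had no UMI of Lyz2, C1qa, C1qb or C1qc. The 6 antigen presentation markers summed to 5701 CPM (1558 to 15900 over libraries), and 45 members with at least 20 UMIs of Cd74, the MHC class II invariant chain, held 88.6% of its UMIs. B and plasma cell markers summed to 42.5 CPM, with 2 of the 6 at 0, among them Ms4a1, but 1 member held 98.3% of the Igkc UMIs, which encode an antibody light chain. NK markers summed to 235 CPM (36.2 to 286), gamma delta T cell markers to 41.1 (0 to 244; Trdv4 and Tcrg-V6 at 0) and invariant NKT markers to 3.82 (0 to 21.2; Zbtb16 and Trav11 at 0). Neutrophil markers summed to 58.7 CPM (0 to 226, Retnlg at 0), plasmacytoid dendritic cell markers to 447 (235 to 555) and tumor markers to 14.3 (0 to 31.7; Krt8 and Krt19 at 0). Of the NK sum, Gzma gave 112 CPM and Eomes 96.5, both also in the cytotoxic list. Of the plasmacytoid dendritic cell sum, Bst2 alone gave 445 CPM, and Siglech and Ccr9 had 2 UMIs each. The part of other cells in the results below was not tested.

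The libraries differed in depth and origin. They held 21649947 to 158760328 UMIs each, and the median UMI count of members ranged from 1107 to 4951 (3137 over all members, with a median of 1379 genes). Of the members, 17 (3.24%) shared their barcode sequence with a cell of another library, as did 4547 (3.23%) of the 140639 barcodes. Members of libraries 1 to 6 had 142 UMIs of 4 Y-linked genes and 0 of Xist, while members of libraries 7 to 12 had 0 and 1790, although the study's methods describe female mice; no member had both. These sets of libraries are therefore given apart where they differ.

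Conventional CD4 T cells were unevenly spread. The 12 libraries held 30, 66, 21, 5, 46, 50, 48, 166, 61, 9, 13 and 10 members in the order of their numbers. As a share of the cells kept, members made up 0.0443% in library 4 and 2.70% in library 8, with a median of 0.296%. Library 8 alone gave 31.6% of the members, and its interval (2.31 to 3.14%) did not meet that of any other library. Among cells with Cd3, members made up 2.01% in library 6 to 18.6% in library 8 (median 6.67%). The share was 0.227% over libraries 1 to 6 (218 members) and 0.932% over libraries 7 to 12 (307 members).

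**Figure D1:**
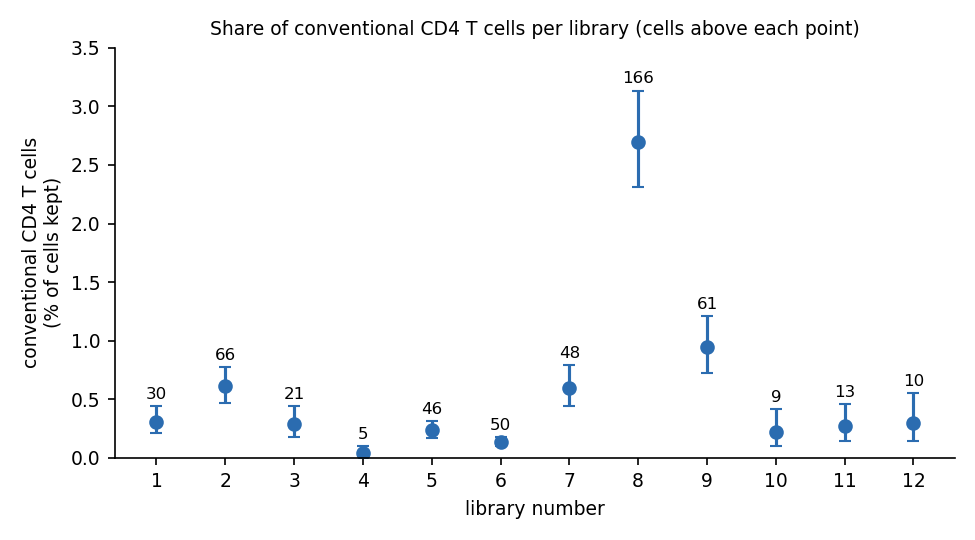
Share of conventional CD4 T cells among the cells kept (percent, y axis) in each of the 12 libraries (x axis); bars are exact 95% binomial intervals, and the number above each point counts the members. Library 8 stands at 2.70%, above every other library.

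CD8 T cells of the same libraries gave the first comparison: 3351 cells with Cd3 and Cd8 UMIs and none of Cd4, Foxp3, Il2ra, Adgre1 or Csf1r. Relative to them, conventional CD4 T cells had more transcripts of TNF family ligands and receptors used in T cell help, and fewer of granzymes and NK receptors. Of 11121 genes with at least 20 UMIs over both classes, 362 (3.26%) were at least 2-fold higher and 562 (5.05%) at least 2-fold lower in CPM, with a median log2 ratio over all genes of 0.02. Intervals on ratios are exact and cover counting error only, and directions are counted over the 8 libraries where each class had at least 20 cells (numbers 1, 2, 3, 5, 6, 7, 8 and 9). Of the listed and named genes, 36 were past 2-fold upward and 22 downward, of which 8 and 10 lost that call when 1 of the 12 libraries was left out. Those upward were Bcl6, Cd200 and Il7r (library 8), Ifng (library 1 or 8), Gata3 and Il1rl1 (library 5), Tcrg-C1 (library 9) and Hspa1a. Those downward included Gzma (library 8), Prf1 (library 3), Birc5 and Stmn1.

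Markers of other cells differed between the classes as well. NK markers summed to 235 CPM in the members and 581 in CD8 T cells, with Klre1 and Gzma past 2-fold lower of 4 tested. Neutrophil markers summed to 58.7 and 194 CPM, with 4 of 4 past 2-fold lower, although each of the 4 came within 2-fold without library 8. Of the 3 plasmacytoid dendritic cell markers, Siglech and Ccr9 were past 2-fold lower, and of 6 antigen presentation markers, Flt3 higher. Tcrg-C1 was 5.46-fold higher, from 38.2 CPM in the members, which stood at 5.06 without library 9. The part of these cells in the ratios was not tested.

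**Figure D2:**
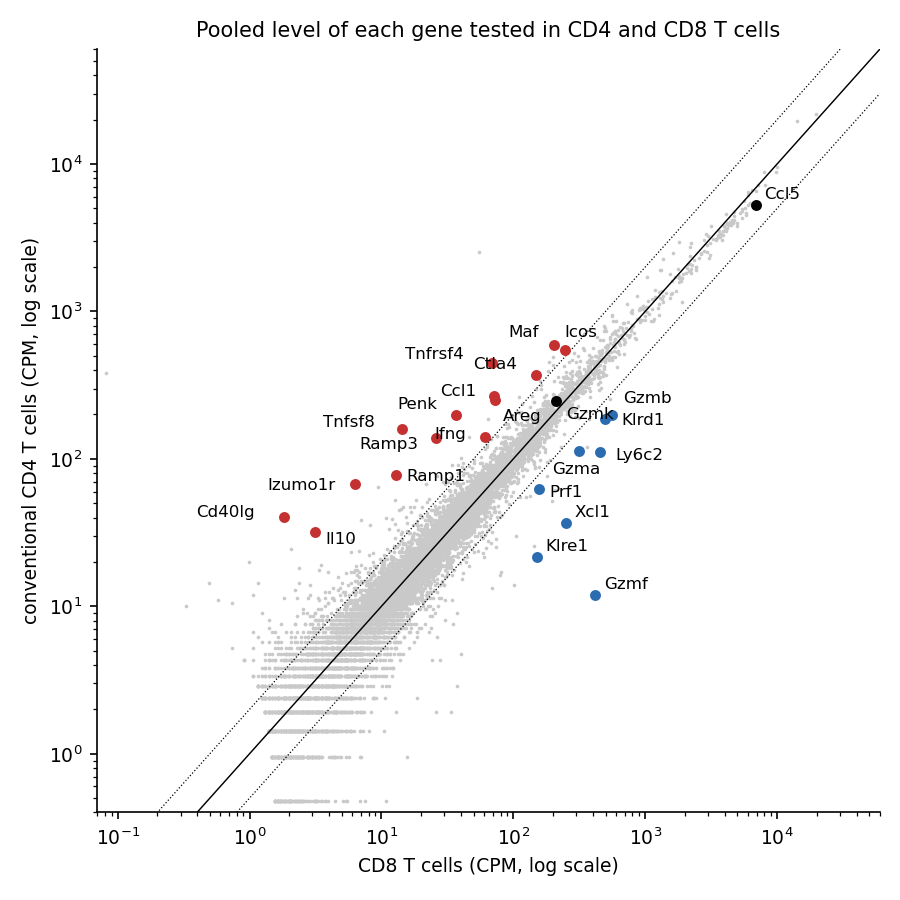
Pooled CPM of each gene tested in conventional CD4 T cells (y axis, log scale) and CD8 T cells (x axis, log scale); the solid line marks equal levels, dotted lines 2-fold, and genes at 0 in either class are not drawn. Named genes past 2-fold are red where higher and blue where lower in CD4 T cells; Gzmk and Ccl5, in black, lie within 2-fold.

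Ligands of T cell help stood far above the CD8 level. Cd40lg ranged from 9.35 CPM in library 6 to 57.8 in library 1 (median 40.9), and in CD8 T cells from 0 to 3.62. The ranges did not overlap, and the pooled levels of 40.6 and 1.81 CPM gave a ratio of 22.4 (13.9 to 37.6). Tnfsf8, which encodes CD30 ligand, ranged from 47.4 CPM in library 9 to 212 in library 5 (median 128), against 6.45 to 19.0 in CD8 T cells. Its pooled levels were 159 and 14.2 CPM, 11.1-fold apart (9.24 to 13.5), and 7.36-fold without library 8. It was detected in 23.8% of members and 3.88% of CD8 T cells, and in 14.1 and 1.44% after each cell was thinned to 1000 UMIs, with B cells at 0.671%. Tnfsf11, encoding RANK ligand, was 2.37-fold higher (1.94 to 2.88), in 7 of 8 libraries.

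Costimulatory receptors showed the same direction. Tnfrsf4, which encodes OX40, ranged from 215 CPM in library 6 to 924 in library 1 (median 415), and in CD8 T cells from 33.5 to 170. All 8 libraries of the members lay above all 8 of the CD8 T cells, with pooled levels of 447 and 69.1 CPM (6.47-fold, 5.88 to 7.11). Icos, a CD28 relative, was 2.24-fold higher (2.09 to 2.40) with 299 to 888 CPM in the members and 184 to 317 in CD8 T cells, so the ranges overlapped although each library agreed in direction. Tnfrsf18, which encodes GITR, was 2.46-fold higher (2.28 to 2.65) in 8 of 8 libraries. Of the 10 genes of help and costimulation, 6 were past 2-fold upward and 0 downward, with a median log2 ratio of 1.20; Tnfrsf9, encoding 4-1BB, was among the others at 249 and 244 CPM.

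Genes known from regulatory T cells were also higher than in CD8 T cells. Izumo1r, which encodes folate receptor 4, ranged from 36.2 CPM in library 3 to 95.2 in library 7 (median 71.6), against 3.17 to 10.0 in CD8 T cells. The classes did not overlap, and the pooled ratio was 10.8 (8.09 to 14.4). Ctla4, an inhibitory receptor, ranged from 271 to 507 CPM (median 378) and in CD8 T cells from 83.8 to 205, again with no overlap (2.49-fold, 2.28 to 2.71). Of 15 genes of the regulatory program, 13 were measured well enough, of which 6 were at least 2-fold higher (Ctla4, Tnfrsf4, Tnfrsf18, Izumo1r, Il10 and Lrrc32) and 0 lower, with a median log2 ratio of 0.90. Ikzf2, which encodes Helios, was 1.76-fold higher (1.63 to 1.89) in 8 of 8 libraries and was detected in 45.5% of members.

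Genes of the helper lineages were unevenly represented. Of 10 Tfh genes, 8 were tested, of which 6 (Bcl6, Icos, Tox2, Slamf6, Cd200 and Maf) were at least 2-fold higher and 0 lower (median log2 ratio 1.30). Maf, a transcription factor of several helper lineages, was 2.88-fold higher (2.69 to 3.08), with 123 CPM in library 9 and 896 in library 8. The defining Tfh genes were scarce: Cxcr5, the follicle homing receptor, was detected in 5 members, Il21 in 1 and Ascl2 in none, and 46.7% of Cd200 UMIs lay in 1 cell. Bcl6 was detected in 5.90% of members and 4.36% of B cells, at unlike depth (medians of 3137 and 1347.5 UMIs). Whether B cells transcribed Bcl6 themselves was not tested. Of 5 Th2 genes, only Il1rl1 and Ccr4 were tested, both past 2-fold upward, at 5.73 and 9.07 CPM; Il4 was at 0, and Il5 and Il13 were detected in 2 and 6 members. Of 7 Th17 genes, only Rora was tested (2.37-fold higher, 2.14 to 2.62, in 8 of 8 libraries), with Il22 at 0, Il17a in 2 members and Il17f in 1.

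Th1 genes were closer between the classes. Ifng, encoding interferon gamma, ranged from 36.8 CPM in library 2 to 624 in library 1 (median 116) and in CD8 T cells from 35.7 to 136. It was higher in each library, although the ranges overlapped, and the pooled levels of 141 and 60.5 CPM were 2.33-fold apart (2.03 to 2.67), or 1.95-fold without library 1; its richest cell, in that library, held 44 of the 295 UMIs. It was the only one of 8 Th1 genes past 2-fold upward, with 0 downward and a median log2 ratio of 0.45. Tbx21, encoding the Th1 factor T-bet, was 1.95-fold lower (1.48 to 2.62), in 8 of 8 libraries. Of 8 tested cytokine genes, Ifng, Il10 and Csf2 were past 2-fold upward and 0 downward (median log2 ratio 0.63). Il10, at 32.0 CPM, and Csf2, at 20.1 CPM, came from 25 and 8 members, and 1 cell held 40.5% of the Csf2 UMIs.

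**Figure D3:**
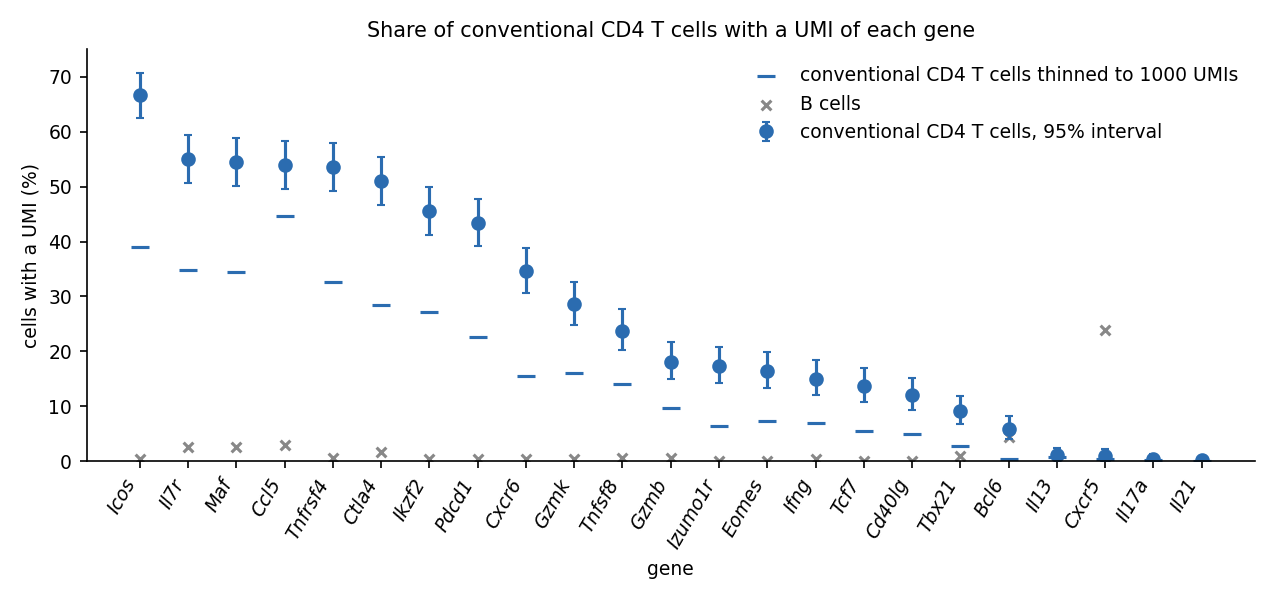
Share of the 525 conventional CD4 T cells with at least 1 UMI of each gene (percent, y axis; points with exact 95% intervals), the share after thinning to 1000 UMIs (dashes) and the share of 298 B cells (crosses). Genes of activation such as Icos (66.7%), Tnfrsf4 (53.5%) and Ctla4 (51.0%) stand far above B cells, whereas Cxcr5, Il13, Il17a and Il21 lie near 0.

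Further genes at least 50 CPM in the members had large ratios. They were Ramp1 (6.02-fold) and Ramp3 (5.29-fold), which encode partners of the calcitonin receptor family, and Penk (199 and 36.6 CPM), the precursor of enkephalins. Slamf1, a receptor of lymphocyte adhesion, was 4.12-fold higher and Cfp, encoding properdin, 3.08-fold. Each was higher in 8 of 8 libraries except Penk, in 7. Without library 8 the ratio of Penk was 10.1 and that of Slamf1 2.60. The 141 UMIs of Cfp came from 42 members, 51.1% of them from 5 cells. Areg, encoding the growth factor amphiregulin, ranged from 87.2 CPM in library 8 to 1063 in library 1 (median 326) and in CD8 T cells from 30.9 to 108; the pooled ratio was 3.45 (3.09 to 3.85). Among cells with no UMI of Lyz2 or the C1q genes the levels of Areg were 676 and 40.7 CPM, and those of Cd40lg 27.6 and 2.54. Ccl1, a chemokine, was 3.76-fold higher, but its 563 UMIs came from 34 members, 61.8% of them from 5 cells, and library 2 went the other way (31.6 and 76.1 CPM).

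Cytotoxic genes were lower. Of 12, 0 were past 2-fold upward and 5 downward (Gzma, Gzmb, Prf1, Crtam and Klrd1), with a median log2 ratio of -0.55. Gzmb, encoding granzyme B, ranged from 0 CPM in library 1 to 312 in library 8 (median 80.2), against 298 to 871 in CD8 T cells. Only library 8 reached the CD8 range, and the pooled levels of 198 and 564 CPM were 2.85-fold apart (2.58 to 3.16), or 5.89-fold without library 8. Prf1, encoding perforin, was 2.52-fold lower in 7 of 8 libraries. Gzma was 2.81-fold lower, in 6 of 8 (1.59-fold without library 8), with 38.3% of its UMIs in 1 member. NK receptor genes were among the genes with the largest ratios: Klre1 (7.04-fold lower), Klrc2 (5.12), Klrc1 (3.78) and, from the cytotoxic list, Klrd1 (2.65), each in 8 of 8 libraries. Xcl1, a chemokine that attracts cross-presenting dendritic cells, stood at 36.8 CPM against 251 (6.84-fold lower, 5.45 to 8.69; 12.3-fold without library 8). Gzmf was 35.1-fold and Gzmc 5.54-fold lower, and a single member held 92.0 and 64.8% of their UMIs. The rest of this set comprised Tcrg-C2 (7.36-fold lower), Bend4 (4.88), Atp8b4 (4.72) and Ly6c2 (4.11), a marker of memory-like T cells and monocytes.

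The pooled direction of Gzmk differed from that in the libraries. Gzmk, encoding granzyme K, had a pooled level of 248 CPM in the members and 211 in CD8 T cells (1.18-fold higher, 1.07 to 1.30). In each of the 8 libraries, however, it was lower in the members: 92.4 and 120 CPM in library 1, 121 and 138 in library 2, 18.1 and 53.2 in library 3, and 21.2 and 54.7 in library 5. The values were 28.1 and 50.1 CPM in library 6, 103 and 268 in library 7, 428 and 613 in library 8, and 91.7 and 206 in library 9. Library 8, the highest in both classes, gave a larger part of the members than of the CD8 T cells (166 of 525 and 368 of 3351). The pooled Gzmk direction also turned among cells with no UMI of Lyz2 or the C1q genes (152 CPM in 107 members, 169.8 in CD8 T cells). Ccl5, an effector chemokine, was lower in 8 of 8 libraries, with medians of 1459 and 4828 CPM, and in the pool, with levels of 5263 and 6874, or 1757 and 4122 without library 8, which put it past 2-fold; the Gzmk levels were then 81.2 and 115.

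**Figure D4:**
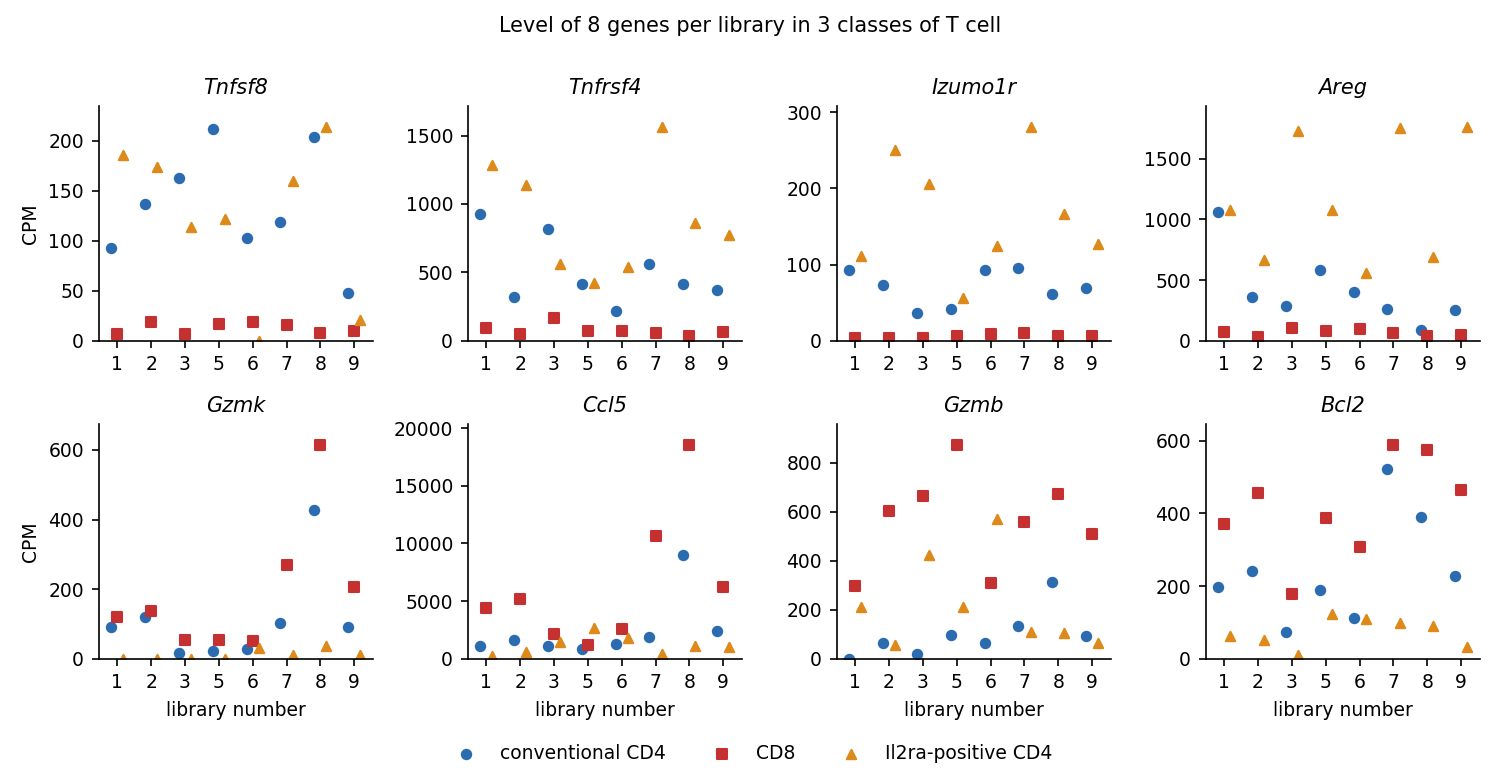
CPM (y axes, each from 0) of 8 genes in conventional CD4 T cells (blue circles), CD8 T cells (red squares) and Il2ra-positive CD4 T cells (orange triangles), by library number (x axes). Tnfsf8, Tnfrsf4 and Izumo1r lie above the CD8 level in each library, and Gzmk and Ccl5 below it; library 8 holds the highest Gzmk (428 and 613 CPM).

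Genes of memory, residence and proliferation gave smaller sets. Of 11 naive and central memory genes, Il7r and S1pr1 were past 2-fold upward and 2 downward, among them Dapl1 (median log2 ratio 0.21). Il7r, encoding the interleukin 7 receptor, was 2.15-fold higher in 7 of 8 libraries (1.84-fold without library 8), while S1pr1, a receptor for leaving tissues, was 2.23-fold higher in 6. Tcf7, a memory transcription factor, stood at 46.3 CPM (37.6 to 56.5) against 40.0. Of 11 genes of residence and migration, S1pr1 was past 2-fold upward and Itga1 and Ly6c2 downward (0.27). Cell cycle genes had 0 of 8 upward and 2 downward, Stmn1 (2.03-fold) and Birc5 (2.04-fold), each in 8 of 8 libraries, with a median log2 ratio of -0.82.

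Each of the following lists had at most 3 genes past 2-fold. Of 12 T cell identity genes, Cd5 alone was past 2-fold (2.87-fold higher; median log2 ratio of the list 0.23). Of 5 lineage factors, Zbtb7b, which encodes the CD4 lineage factor ThPOK, was 2.78-fold higher (22.4 and 8.07 CPM) and Gata3 2.19-fold; Runx3, the CD8 lineage factor, was 1.35-fold lower in 7 of 8 libraries, and the list's median was -0.37. Of 10 inhibitory receptors, Ctla4 and Cd200 were past 2-fold upward and Cd160 downward (0.32). No gene of T cell receptor response (0 of 10, median 0.11) or of the Polycomb complex PRC2 (0 of 8, median -0.07) passed 2-fold in either direction. Ezh2, the target of EZH2i, had 65.4 CPM (54.9 to 77.3) against 86.3 and was lower in 6 of 8 libraries. Of 8 dissociation genes, Hspa1a was past 2-fold upward (0.40), and of 11 BCL2 family genes, Pmaip1 (0.13). Among 11 genes the study names for EZH2i, 0 were past 2-fold upward and 2 downward, among them Gzmb (-0.39); Bcl2 was lower in 8 of 8 libraries (72.5 to 523 CPM against 178 to 587), and Bcl2l11, which encodes BIM, in 7.

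The 249 CD4 T cells removed by the Il2ra limit alone gave the nearest other class, compared after the data had been seen. Members had more transcripts of Gzmk, Gzma and several memory genes than these cells, and fewer of part of the regulatory program. Of 8893 genes, 363 (4.08%) were at least 2-fold higher in the members and 382 (4.30%) lower, with a median log2 ratio of -0.02. Directions are counted over 7 libraries, since library 9 had under 20 such cells. Of the listed and named genes, 24 were past 2-fold upward and 29 downward, of which 4 (Cd28, Klrc2, Klre1 and Lef1) and 12 lost that call when 1 library was left out. Those downward were Ccl3, Il2 and Il13, Gata3, Ikzf4, Itgae, Bid, Cd79b and the 4 neutrophil markers.

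Among genes higher in the members, Gzmk stood at 248 CPM against 15.2 (16.3-fold, 10.5 to 27.0, in 6 of 7 libraries), and at 0 UMIs in 4 of the 7 libraries of Il2ra-positive cells; without library 8 the levels were 81.2 and 6.43. Gzma was 36.9-fold higher, from 235 and 4 UMIs, and 1 member held 90 of the 235. Its ratio ranged from 21.5 without library 11 to 144 without library 6. Fasl, encoding the Fas death ligand, was 4.61-fold higher (3.20 to 6.85) in 7 of 7. Of 12 cytotoxic genes, 5 were past 2-fold upward (Gzma, Gzmk, Ccl5, Eomes and Fasl) and Ccl3 downward, with a median log2 ratio of 0.34. Ccl5 was higher in 4 of 7 libraries and lower in 3, and its pooled ratio of 5.67 was 2.05 without library 8, where those of Eomes and Fasl were 5.73 and 2.80. Gzmb, at 198 and 156 CPM, was higher in 3 libraries and lower in 4, and stood at 91.3 and 176 without library 8. NK markers moved with them: they summed to 235 CPM in the members and 21.3 in the Il2ra-positive cells, and the 3 tested (Klre1, Eomes and Gzma, of which Eomes and Gzma are also in the cytotoxic list) were past 2-fold upward. Gamma delta T cell markers summed to 41.1 and 5.32 CPM, and Tcrg-C1, the 1 tested, was 7.19-fold higher, but 71 of its 80 UMIs lay in library 9. The part of NK and gamma delta T cells in these ratios was not tested. Tcf7 was 6.10-fold higher (3.18 to 13.1) and S1pr1 4.49-fold, each in 7 of 7 libraries. With Lef1, Klf2 and Igfbp4 they made up the 5 of 10 naive and memory genes past 2-fold upward; Ccr7 was the 1 downward (median 0.78). Bcl2, which encodes a survival protein, was 3.62-fold higher (2.98 to 4.42) in 7 of 7. Klf3 (4.97-fold), Ly6c2 (4.31), Ms4a4b (3.62), Sh2d1a (3.57) and Slamf6 (3.24) complete the genes with the largest ratios.

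Among genes lower in the members, Areg had 87.2 to 1063 CPM against 557 to 1749 in the Il2ra-positive cells. It was lower in 7 of 7 libraries, although the ranges overlapped (4.41-fold, 3.99 to 4.88). Il1r2, a decoy receptor for interleukin 1, was 5.39-fold lower (4.47 to 6.54; 3.23-fold without library 8) and Hilpda, induced by hypoxia, 3.26-fold, also in 7 of 7. Tff1 (4.71-fold), Pcyt1a (4.24), Epcam (3.86), Ccl22 (3.78), Ccl1 (3.44), Bmyc (3.40) and Sdc4 (3.27) were lower in 6 or 7 libraries. Of 13 tested genes of the regulatory program, 0 were past 2-fold upward and 6 downward (Ikzf4, Tnfrsf4, Tnfrsf9, Izumo1r, Itgae and Lrrc32), with a median log2 ratio of -1.0. Izumo1r stood at 67.3 CPM against 163 (2.43-fold lower, 1.95 to 3.02) and Ikzf2 at 423 against 819, each in 7 of 7 libraries. For helper ligands, the ratio of Cd40lg was 1.48 (0.994 to 2.26), but with at least 2 Cd4 UMIs in both classes its levels were 57.0 and 11.2 CPM, and without library 8 the ratio was 2.96 (1.38 to 7.07). Tnfsf8 had 159 against 178 CPM, with opposite directions among libraries, and 166 against 144 with at least 2 Cd4 UMIs. Antigen presentation markers were at 10959 CPM in the Il2ra-positive cells and neutrophil markers at 988. All 4 neutrophil markers were past 2-fold lower in the members, which none of the 4 was without library 8. Cd74 stood at 4378 CPM in the Il2ra-positive cells and 2264 in the members. With under 20 Cd74 and 5 Igkc UMIs it stood at 479 and 308, a fall set by construction. The part of antigen-presenting cells and neutrophils in these ratios was not tested.

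Several other lists had no gene past 2-fold against the Il2ra-positive cells. No gene passed in either direction among T cell identity (12 tested), Th1 (8), inhibitory receptor (9), cell cycle (8) or PRC2 genes (8). Gata3 was the 1 of 5 lineage factors, lower in the members. Sh2d1a and Slamf6, of 7 Tfh genes, and Cd28, of 9 genes of help, were higher, and Tnfrsf4 and Tnfrsf9 lower. Il2 (16.2 and 94.9 CPM) and Lta, of 8 cytokine genes, were lower, as were Il13 and Il1rl1 of 3 Th2 genes and Ccr6 of 2 Th17 genes. S1pr1, Klf2 and Ly6c2 were higher and Itgae lower among 11 genes of residence and migration. Tnfrsf9 was the 1 of 10 genes of T cell receptor response, lower in the members, and Hspa1a and Hspa1b were the 2 of 8 dissociation genes, higher. In the BCL2 family Bcl2 was higher and Bcl2l1 and Bid lower, of 11. Among 11 genes the study names for EZH2i, 5 were past 2-fold upward (Tcf7, Lef1, Gzmk, Ccl5 and Bcl2) and Ccr7 downward, with a median log2 ratio of 0.52.

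Without regard to Il2ra, 17 cells with Cd3, Cd4 and a Foxp3 UMI passed the limits on Cd8, Adgre1 and Csf1r, and 2 of them had no Il2ra UMI. They held 131490 UMIs in all and are set beside the members by value alone. Of 7817 genes tested, 937 (12%) were at least 2-fold higher in the members and 670 (8.57%) lower. The balance turned with cells thinned to 1000 UMIs (165 higher, 4.68%, and 512 lower, 14.5%). It also turned with fewer than 3000 genes (572, 7.84%, and 867, 11.9%) and without library 8 (678, 11.2%, and 697, 11.5%). Of the listed and named genes, 33 of the 53 past 2-fold upward and 16 of the 24 downward lost that call when 1 library was left out. Ikzf2 stood at 423 CPM in the members and 1460 in these cells, Ctla4 at 370 and 1422, and Izumo1r at 67.3 and 243; without library 8, Ikzf2 was at 496 and 872 CPM and Ctla4 at 351 and 627, both within 2-fold. Bcl2 stood at 332 and 53.2 CPM and Ccl5 at 5263 and 297; library 8 had the highest Ccl5 (9030 CPM), and without it the level in the members was 1757. Gzmk was at 0 in the Foxp3-positive cells. With that class set to a floor of 3 counts, the members were 10.9-fold higher, and the lower limit of the interval was 8.82. The level in the members was 248 CPM with library 8 and 81.2 without it, which gave 1.77-fold against the floor. Markers of other cells moved with these values: 6 of 7 macrophage markers, 4 of 6 antigen presentation markers and 2 of 3 NK markers tested were past 2-fold higher in the members. Their sums were 2249 and 1293 CPM, 5701 and 928, and 235 and 0, and their part was not tested. Each of the 6 macrophage markers, and Eomes of the NK markers, came within 2-fold when 1 library was left out.

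Within the members, transcripts of Gzmk and Eomes were found together. Eomes, a transcription factor of effector T cells, was detected in 45.3% of members with a Gzmk UMI and in 4.80% of those without. Ctla4 was detected in 63.2% of members with Ikzf2 and 40.9% without, and Tnfrsf4 in 66.0% with Ctla4 and 40.5% without. Tnfsf8 was found in 44.4% of members with Cd40lg and 21% without, and Cxcr6, a residence receptor, in 50.4% with Pdcd1 and 22.6% without. Ccl5 was found in 85.3% with Gzmk and 41.3% without, and Slamf6 in 27.8% with Tcf7 and 23.6% without. Izumo1r went the other way, in 13.5% with Klrd1 and 18.4% without. These shares describe cells that also differ in depth and in library.

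A split by Gzmk or Eomes against Tnfrsf4, chosen after these values had been seen, set 98 members with Gzmk or Eomes and no Tnfrsf4 beside 211 with Tnfrsf4 and neither of the others; 70 had both kinds and 146 none. Their median UMI counts were 4142 and 3118. The first set made up 31.9% of members in library 8 (53 cells), 21.2% in library 2 (14), 19.7% in library 9 (12) and 2.17% in library 5 (1). The Tnfrsf4 set ranged from 30.0% in library 6 to 63.3% in library 1 among the 8 libraries with at least 20 members. Of 6210 genes, 253 (4.07%) were at least 2-fold higher in the Gzmk or Eomes set and 562 (9.05%) lower, with a median log2 ratio of -0.05. Directions are counted over libraries 2, 8 and 9, the only ones with at least 10 cells of both sets. Of the listed and named genes, 11 of the 22 past 2-fold upward and 27 of the 47 downward lost that call when 1 library was left out.

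The Gzmk or Eomes set held the cytotoxic transcripts. Ccl5 stood at 15454 CPM against 575 (26.9-fold, 24.5 to 29.6), Gzmb at 505 against 58.6 (8.61-fold, 6.27 to 12.1) and Gzma at 337 against 4.99, each higher in 3 of 3 libraries. Library 8 gave 53 of the 98 cells of the first set and 56 of the 211 of the other. Without it the ratio of Ccl5 was 6.69 (5.89 to 7.60), that of Gzmb 6.30 and that of Gzma, from 119 and 2 UMIs, 249.8. A single member held 90 of the 235 Gzma UMIs of all members, and the ratio of Gzma was 28.1 without library 11. Of 9 cytotoxic genes tested, 7 were past 2-fold upward and 0 downward, with a median log2 ratio of 1.61; without library 8, Nkg7 (1.61-fold) and Prf1 (1.29-fold) were within 2-fold and Ccl4 lay the other way (167 and 201 CPM). Ret, a receptor tyrosine kinase gene, was at 0 in the Tnfrsf4 set. It was 18.5-fold higher with that set at the floor of 3 counts, a value that is no lower limit. Lpin1 (7.65-fold), Sh2d1a (4.85), F2r (4.07), Txk (4.0), Oxr1 (3.73) and Fasl (3.47) followed, each in 3 of 3 libraries. The ratios of these 6 without library 8 ranged from 2.40 for Oxr1 to 8.40 for F2r.

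The Tnfrsf4 set held the helper ligands and regulatory genes. Tnfsf8 stood at 315 CPM against 15.6 (20.2-fold, 9.65 to 50.7) and Areg at 499 against 24.6 (20.3-fold, 11.2 to 41.0), each in 3 of 3 libraries; without library 8 the ratios were 3.18 (1.40 to 8.91) and 9.80 (4.91 to 22.9). Nrp1, encoding neuropilin 1, was 14.7-fold and Tnfsf11 11.2-fold higher in this set, as was Penk 10.7-fold; without library 8 these ratios were 4.61, 8.10 and 16.6. Of 11 regulatory genes tested, 9 were past 2-fold toward the Tnfrsf4 set and 0 toward the other (median log2 ratio -1.75). Among the 9 were Ikzf2 (597 and 221 CPM) and Ctla4 (501 and 239). The ratios of Ikzf2 and Itgae fell to 1.91 and 1.49 without library 8, and that of Ctla4 to 1.97 without library 9. Cd200r1 (36.3-fold), Gpm6b (19.3), Ramp1 (16.8), Ikzf4 (15.6) and Gcnt2 (12.3) rested on 1 to 4 UMIs in the Gzmk or Eomes set. Cd40lg was the exception among the ligands, with 51.1 and 31.3 CPM and an interval of the ratio that included 1 (0.873 to 3.25). All 6 antigen presentation markers were also higher in the Tnfrsf4 set, Cd74 at 2502 against 777 CPM. Without library 8 Cd74 stood at 2273 against 2402, and all 6 were within 2-fold. S100a8, S100a9 and Ighm were past 2-fold toward the Tnfrsf4 set as well, and Gzma, the 1 NK marker tested, toward the other. The part of other cells in this split was not tested.

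**Figure D5:**
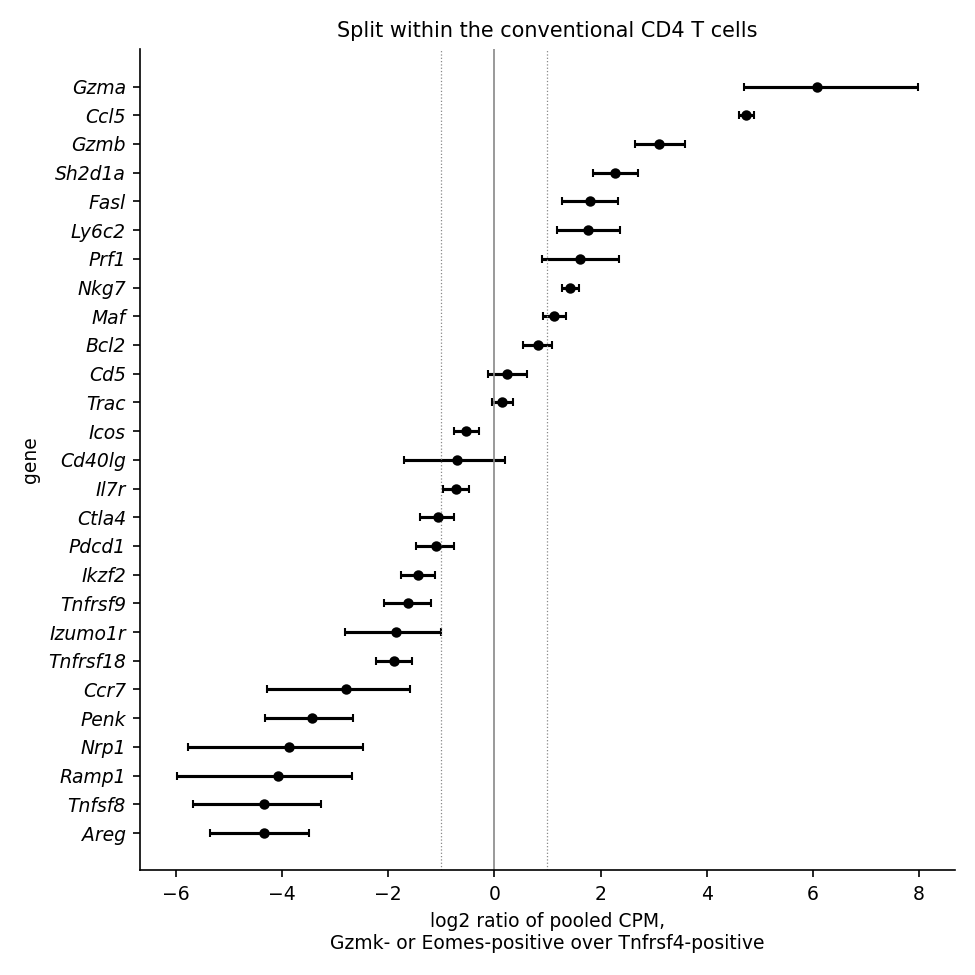
Log2 ratio of pooled CPM (x axis) between members with Gzmk or Eomes and members with Tnfrsf4, for 27 genes chosen after their values were seen; bars are exact 95% counting intervals, and dotted lines mark 2-fold. Gzma and Ccl5 lie farthest to the right and Areg and Tnfsf8 farthest to the left, with all libraries pooled, while the interval of Cd40lg crosses 0.

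Among the other lists of this split, most medians lay below that of all genes, toward the Tnfrsf4 set. Of 8 inhibitory receptors, 0 were past 2-fold toward the Gzmk or Eomes set and 6 (Pdcd1, Ctla4, Lag3, Btla, Nt5e and Cd200) toward the other, with a median log2 ratio of -1.09; each of the 6 came within 2-fold without 1 library, library 8 for all but Ctla4. Of 8 genes of help, Cd27 went with the Gzmk or Eomes set and Tnfrsf9, Tnfrsf18, Tnfsf8 and Tnfsf11 with the other. Of 7 Th1 genes, 2, among them Cxcr3, and of 6 Tfh genes Sh2d1a and Maf were at least 2-fold higher in the Gzmk or Eomes set. Il18r1 and Cd200 from these lists, Rora of the Th17 list, and Ccr7 and Klf2 of 7 memory genes were lower. Zbtb7b and Gata3, of 5 lineage factors, Csf2 and Ltb, of 7 cytokine genes, and Fos, Fosb, Jun and Hspa1b, of 8 dissociation genes, were also lower. Itga1, Ccr2 and Ly6c2 were higher and Itgae and Klf2 lower among 11 genes of residence and migration. Egr3 and Tnfrsf9, of 8 genes of T cell receptor response, Mcm5, of 8 cell cycle genes, and Bad, of 9 BCL2 family genes, were lower. Without library 8, Cxcr3, Maf, Cd200, Rora, Klf2, Zbtb7b, Csf2, Fosb, Ccr2, Ly6c2, Itgae, Egr3 (1.27-fold) and Bad (1.19-fold) were within 2-fold. Jun, Hspa1b and Itga1 were within 2-fold without another library. No T cell identity gene (12 tested) or PRC2 gene (8) passed 2-fold. The medians of the T cell identity list (0.32) and the lineage factors (0.45) lay toward the Gzmk or Eomes set, as did that of 9 genes the study names for EZH2i (0.45), with Gzmb and Ccl5 past 2-fold toward that set and Ccr7 toward the other.

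The number of Cd4 UMIs, a part of the rule, offered a further view of the members, given by values alone. Sets made by a UMI count can differ in depth and in library, and neither was taken into account. In the 344 members with exactly 1 Cd4 UMI, Cd40lg stood at 27.5 CPM, against 57.0 in the 181 members with at least 2. Lag3, an inhibitory receptor that binds MHC class II, stood at 49.0 and 112 CPM, Il10 at 18 and 49.5, and Zbtb7b at 16.3 and 30.1. Lyz2, a macrophage marker, had 569 CPM with 1 Cd4 UMI and 327 with at least 2. Itga1 (31.8 and 8.60 CPM), Gata3 (83.4 and 53.8) and Tcf7 (53.3 and 37.6) were also lower with at least 2. Some of these genes had few UMIs over all members: Il10 had 67 in 25 cells, Zbtb7b 47 in 45 and Itga1 45 in 28. Tnfsf8 (153 and 166 CPM), Izumo1r (67.0 and 67.7), Gzmk (239.7 and 259) and Ccl5 (5300.0 and 5217) were close in the 2 sets. Tnfrsf4 stood at 394 and 512 CPM, both above the pooled 69.1 of CD8 T cells.

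Pooled levels of several genes in the members differed between the libraries with Y-linked and with Xist transcripts. No label ties these libraries to an agent or a treatment length, so these differences and any of treatment cannot be told apart. Il1r2 stood at 164 CPM in libraries 1 to 6 and 35.5 in libraries 7 to 12, Cd74 at 3973 and 1667, and Gata3 at 124 and 51.6. Eomes stood at 36.9 and 117 CPM and Maf at 356 and 671. Over the 11 libraries other than library 8, which span both sets, Eomes was at 55.3 and Maf at 304. Library 8 held 166 of the 307 members of libraries 7 to 12. By library, Maf stood at 539 CPM in library 7, 896 in library 8 and 123 in library 9. In those of libraries 1 to 6 with at least 20 members, Maf ranged from 234 CPM (library 6) to 485 (library 1). Whether the differences between the sets hold without library 8 was not tested. Tnfrsf18 (466 and 499 CPM) lay close. Tcrg-C1, a gamma chain gene of the other T cell receptor, reached 225 CPM in library 9 and at most 18.7 in the other 7 libraries with at least 20 members, and Trdc was detected in 1 member.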

How the data were processed

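Single-cell libraries (10x Genomics 3' v3 kit) of CD45+ cells from 12 mice were sequenced by the submitters. The authors deposited 1 matrix of UMI counts, without normalization, for 31053 genes and 140639 barcodes; their processing notes name Cell Ranger 2.1.1, Seurat and mm10, and the matrix header names software version 3.0.2. The annotation release is not given in the sources used here. Gene positions came from GENCODE M21 by identifier (31011 found).

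Following the study's methods, barcodes were kept if they had over 200 but under 5000 genes, with no more than 10% of UMIs from mitochondrial genes. These limits left 128912 barcodes, fewer than the number of cells that the study states after its own filters. No doublets were removed beyond the limits of the rule. The members and gene lists were chosen with earlier results of these data known. Counts were summed per class and given as CPM with exact Poisson intervals, ratios with conditional binomial intervals and shares with Clopper-Pearson intervals, all at 95% and covering counting error only. A gene was called past 2-fold if it had at least 20 UMIs over both classes; the 10 genes that define the classes were left out, and a class at 0 was set to 3 counts. Apart from the listed genes, the text names the 10 largest ratios per direction with at least 50 CPM in the higher class, an interval without 1 and the same direction in at least 80% of the libraries where each class had 20 cells or more (10 for splits within the members). Other genes named were chosen after their values were seen, as were the comparison with Il2ra-positive cells and the split by Gzmk, Eomes and Tnfrsf4. For shares, cells were thinned at random to 1000 UMIs, which left out 48 members, 302 CD8 T cells and 61 B cells; B cells had a median of 1347.5 UMIs. The ratios of listed and named genes past 2-fold were recomputed without each library in turn, an alternative chosen after the data had been seen. Results for some genes, and a split of the members that rests on them, are not reported here. Scripts were tested on simulated data. Python 3.11.15, numpy 2.4.6, scipy 1.17.1 and pandas 2.3.3 were used.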

Additional observations from a re-analysis of the deposited data

How the results depend on the processing

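Of 211 values of shares and counts recomputed under alternatives, 166 stayed within the interval of the share or within 1.5 times the count and 45 moved. The share of conventional CD4 T cells was 0.50% with at most 5% mitochondrial UMIs, 0.467% with fewer than 3000 genes, 0.140% with at least 2 Cd4 UMIs, 0.365% with at least 2 Cd3 UMIs, 0.60% with no limit on Il2ra, 0.0830% with no UMI of Lyz2 or C1q genes and 0.368% with under 20 Cd74 and 5 Igkc UMIs. It was 0.932% in libraries 7 to 12 and 0.227% in libraries 1 to 6; leaving out 1 library at a time gave 0.292% (without library 8) to 0.519% (without library 6). The limit on Cd74 and Igkc and the library sets were chosen after the data had been seen. With at least 100 UMIs over both classes, 121 genes (1.44%) were at least 2-fold higher and 190 (2.26%) lower than in CD8 T cells. The counts were 320 (10.2%) and 124 (3.95%) against Foxp3-positive cells and 72 (1.65%) and 109 (2.49%) against Il2ra-positive cells. In the Gzmk or Eomes split they were 36 (1.996%) and 93 (5.16%). By construction fewer genes were tested, but each of these shares was also lower than in the main setting. With the median over libraries the counts were 584 (5.25%) and 1278 (11.5%) against CD8 and 832 (9.36%) and 752 (8.46%) against Il2ra-positive cells. The Gzmk or Eomes split gave 583 (9.39%) and 1157 (18.6%), and no library held enough cells for the Foxp3 comparison. Thinned to 1000 UMIs, the counts were 165 (4.68%) higher and 512 (14.5%) lower against Foxp3-positive cells and 238 (5.21%) higher against Il2ra-positive cells. The Gzmk or Eomes split then gave 103 (4.68%) and 243 (11.1%). In libraries 1 to 6 the counts were 623 (6.09%) higher against CD8, and 220 (3.64%) and 198 (3.27%) against Il2ra-positive cells. The Gzmk or Eomes split gave 152 (6.61%) and 332 (14.4%) there. Without cells that had Lyz2 or C1q UMIs, 107 members and 1 Foxp3-positive cell were left. The counts were then 25 (1.49%) and 359 (21.4%) against Foxp3-positive cells and 167 (6.23%) and 175 (6.53%) against Il2ra-positive cells. They were 46 (5.34%) and 123 (14.3%) in the Gzmk or Eomes split. With no limit on Il2ra, the Gzmk or Eomes split gave 410 (5.11%) and 1019 (12.7%). At least 2 Cd4 UMIs gave 330 (8.83%) lower in the Gzmk or Eomes split. Fewer than 3000 genes gave 572 (7.84%) higher and 867 (11.9%) lower against Foxp3-positive cells. The number of genes tested differed between settings, so a lower count did not always come with a lower share than in the main setting. Leaving out 1 library at a time gave 317 (2.89%) to 446 (4.14%) higher and 519 (4.76%) to 708 (6.43%) lower against CD8. Against Foxp3-positive cells it gave 678 (11.2%) to 941 (12.7%) and 637 (8.46%) to 762 (9.89%). Against Il2ra-positive cells it gave 247 (3.23%) to 373 (4.25%) and 228 (2.99%) to 425 (4.85%), the 228 without library 8. In the Gzmk or Eomes split it gave 171 (4.06%) to 273 (4.45%) and 474 (11.3%) to 587 (9.58%). Each share belongs to the count before it, so the shares are not ranges. Against Foxp3-positive cells, 814 (10.6%) were higher without library 1 and 697 (11.5%) lower without library 8. The cause of these moves was not tested where the setting did not set it. With no limit on Il2ra, the pooled Gzmk level was 158 CPM in members and 185 in CD8 T cells, and without cells that had Lyz2 or C1q UMIs it was 152 and 169.8, both opposite to the main direction. No analysis that pairs mice across the groups was possible because the labels give no shared replicate numbers and the libraries are not tied to mice. Cell classes of the same library were set side by side through the counts of directions above. Depth limits detection in single cells, so a gene at 0 in a cell was not shown to be absent.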
